A study of Mus musculus with 6 samples.

Results

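The genes of the epidermal differentiation complex, a cluster on mouse chromosome 3 that supplies building blocks of the cornified cell envelope, were measured in tongue epithelium with and without Cre-mediated deletion of the ER stress sensor IRE1α. Members were taken by gene symbol: every row of the deposited table whose symbol begins with Sprr, Lce or S100a, together with Lor, Ivl, Flg, Flg2, Rptn, Hrnr, Tchh, Tchhl1, Crnn, Crct1 and Kprp. This gave 65 of the 55421 genes in the table, namely 17 Sprr, 21 Lce and 16 S100a genes, 7 genes of the fused S100 type and 4 other envelope genes. The KO group held 3 mice with the genotype K14CreERT2 IRE1 F/F, in which a tamoxifen-activated Cre is driven by the keratin 14 promoter. The WT group held 3 littermates with the genotype IRE1F/F, which carry the same floxed alleles and no Cre. All 6 mice, WT included, received tamoxifen by daily intraperitoneal injection for 4 days, with harvest on day 5. The tongue was inflated with neutral protease and collagenase for 10 min at 37 °C, the mucosa was peeled off, and 1 library per mouse was made with QuantSeq, a kit that reads a tag near the 3′ end of each polyadenylated mRNA.

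In stratified epithelia, cells leave the basal layer, stop dividing and build a protein shell under the plasma membrane that transglutaminases cross-link. Loricrin makes up most of that shell in the skin, small proline-rich (SPRR) proteins act as cross-bridges, late cornified envelope (LCE) proteins are added late, and the fused S100 type proteins such as filaggrin and cornulin bind keratin and the envelope. S100A proteins are small calcium-binding proteins, and S100A8 and S100A9 form an antimicrobial complex that both keratinocytes and neutrophils make. Keratin 14 marks the basal layer, so that the Cre is made in basal cells, and a deletion made there passes to the suprabasal cells they give rise to. Most of these genes are transcribed in suprabasal cells. How far the deletion had reached those cells by day 5 was not tested. In a peeled sheet of mixed layers, fewer cells of a type and less RNA per cell cannot be told apart.

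Libraries held 4606309 to 6286153 reads. Values below are normalised read counts, and fold changes are KO minus WT on the log2(value + 1) scale with their standard error. A test was made for genes with at least 10 in at least 3 libraries, by limma with Benjamini-Hochberg adjustment over all 10987 genes that met this. The targeted gene Ern1 gave 78.0, 117 and 123 in KO libraries and 102, 105 and 77.1 in WT libraries, which overlapped, and since the labels do not name the deleted exons, its 3′ tag checks nothing about the genotype. Keratinocyte markers were abundant in every library, with the summed level of a suprabasal list (Krt4, Krt13 and 7 others) at 574265 to 810346 in KO and 487588 to 680490 in WT. The summed level of 7 basal keratinocyte markers was 63175, 43733 and 36389 in KO, against 25654, 27832 and 27018 in WT, so that the groups did not overlap, and skeletal muscle markers summed to 1971 in KO replicate 1, against 93.1 to 370 in the other KO libraries and 107 to 288 in WT libraries. The gene B2m, which nearly all cells use, is listed at 0 in every library, so that a 0 may be a failed estimate.

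Of the 65 members, 52 could be tested, and 49 of those stood at 10 or more in all 6 libraries. No tested member owed its place to 1 genotype alone: 0 of the 52 were at 10 or more in KO libraries only and 0 in WT libraries only. The other 13 never reached 10 in any library. They were Sprr2a1, Sprr2c-ps, Hrnr, Rptn, Tchh, S100a5, S100a7l2 and S100a11-ps, all listed at 0 in every library, and Sprr2a2, Sprr4, Flg2, S100a2 and S100a3, of which Flg2 reached 6.50 in KO replicate 1 and S100a2 reached 5.72 in KO replicate 3. By the mouse annotation (GENCODE M21, GRCm38), 64 members lay on chromosome 3, between 90511034 and 93564643, and the pseudogene S100a11-ps lay on chromosome 12.

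In KO tongue epithelium the complex did not move as a block. With limma 2 members were higher in KO, Sprr1b and S100a6, which is 3.85% of the 52 tested members against 1.22% of all genes tested. The count of members lower in KO was 0, against 0.583% of all genes, and 12 members had an unadjusted p under 0.05 (23.1%, against 13.5% of all genes). The edgeR test on the whole reads recovered from the table called 1 member higher, Sprr1b (1.14% of all genes), and 0 lower (0.592% of all genes). DESeq2 on the same reads called 6 members higher, Sprr1b, Sprr1a, Sprr2h, Lce3d, S100a6 and S100a11, where 1.97% of all genes were called, and 1 member lower, Crnn, where 1.38% of all genes were. Those 7 were also the members in the authors' deposited table of 341 called genes, with the same directions.

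Counting libraries rather than p-values, KO and WT did not overlap in 13 members. All KO libraries were above all WT libraries for Sprr1a, Sprr1b, Sprr2h, Sprr2i, Sprr2j-ps, Lce3d, S100a6, S100a10 and S100a11, or 9 of 52 (17.3%, against 9.84% of all genes). All KO libraries were below all WT libraries for S100a14, S100a16, S100a7a and Crnn, or 4 of 52 (7.69%, against 9.25% of all genes). The median log2 fold change was 0.95 over 13 Sprr genes, 0.57 over 11 S100a genes, 0.06 over 21 Lce genes, 0.04 over 4 other envelope genes and -0.71 over 3 genes of the fused S100 type, beside -0.01 over all genes tested. Without WT replicate 1 the Sprr median was 0.41 and the S100a median -0.02, and without KO replicate 2 the S100a median was 0.33. With edgeR and DESeq2 the S100a median was 0.22 and 0.19. The Lce and other envelope medians took both signs when 1 library was left out, as at -0.13 and -0.12 without WT replicate 2.

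**Figure D1:**
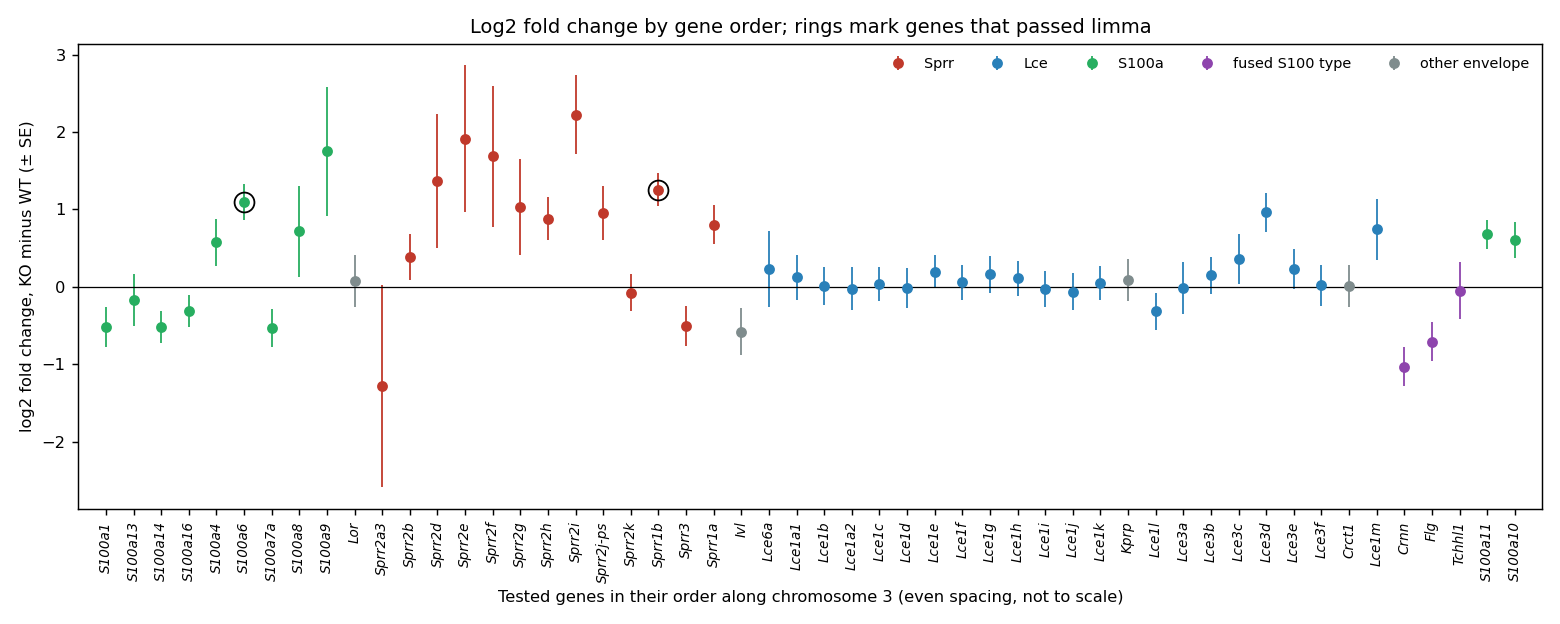
Log2 fold change of each tested member (y axis, KO minus WT, points with standard error bars) in gene order along chromosome 3 (x axis, even spacing), coloured by subfamily. Sprr1b and S100a6, ringed, passed limma at 1.25 and 1.10, and most Lce genes lie close to the line at 0.

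Sprr1b encodes a proline-rich envelope precursor that is induced when stratified epithelia are stressed or turn over fast. Its level was 11297, 12072 and 9276 in KO libraries, against 3994, 4258 and 5500 in WT libraries. Every KO library exceeded every WT library, and the 2.37-fold rise (10882 ± 1443 in KO and 4584 ± 804 in WT, SD, n = 3 mice each) had a log2 fold change of 1.25 ± 0.21 (limma adjusted p = 0.0157, edgeR adjusted p = 0.0186, DESeq2 adjusted p = 7.94e-07). In the authors' deposited table the log2 fold change of Sprr1b was 1.25, with an adjusted p of 3.93e-07. The call depended on having 3 mice a group: the limma adjusted p was 0.0817, 0.0583 and 0.0629 without KO replicates 1, 2 and 3 in turn, 0.0735 without WT replicate 1, 0.0712 without WT replicate 2 and 0.0093 without WT replicate 3, with log2 fold changes of 1.16 to 1.39. Library names come in a number style (KO replicate 1, WT replicates 1 and 2) and a letter style (KO replicates 2 and 3, WT replicate 3) whose meaning the labels do not give. The Sprr1b difference was 1.45 within the number style and 0.94 within the letter style, and with the style as a covariate its limma adjusted p was 0.0551.

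Sprr1a, its paralog of the same cross-bridging type, had 10389, 13329 and 8654 in KO, against 5326, 5250 and 8081 in WT. The groups did not overlap, although the lowest KO library was only just above the highest WT library, and the log2 fold change of 0.80 ± 0.25 passed with DESeq2 (adjusted p = 0.0344) and not with limma (adjusted p = 0.165) or edgeR (adjusted p = 0.173). Sprr3, the SPRR protein most typical of oral and oesophageal epithelium, lies between those genes on the chromosome, 17.7 kb from Sprr1b and 25.2 kb from Sprr1a. Its level was 9038, 12469 and 7471 in KO, against 16376, 12890 and 11461 in WT (log2 fold change -0.51 ± 0.25, limma adjusted p = 0.429). KO replicate 2 was above WT replicate 3, so that here the groups overlapped, and Sprr3 did not pass with any of the 3 tools.

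The 3 neighbours were also compared within each library, a comparison chosen after their values were seen and given without a test. The ratio of Sprr1b to Sprr3 tags was 1.25, 0.968 and 1.24 in KO, against 0.244, 0.330 and 0.480 in WT. The ratio of Sprr1a to Sprr3 was 1.15, 1.07 and 1.16 in KO, against 0.325, 0.407 and 0.705 in WT. In WT libraries Sprr3 gave the most tags of the Sprr genes, while in KO libraries Sprr1b, Sprr1a and Sprr3 gave similar numbers. The Sprr1b to Sprr1a ratio also differed, at 1.09, 0.906 and 1.07 in KO, against 0.750, 0.811 and 0.681 in WT. Because 3 against 3 libraries cannot go below an exact permutation p of 0.1, no p is given for such ratios.

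**Figure D2:**
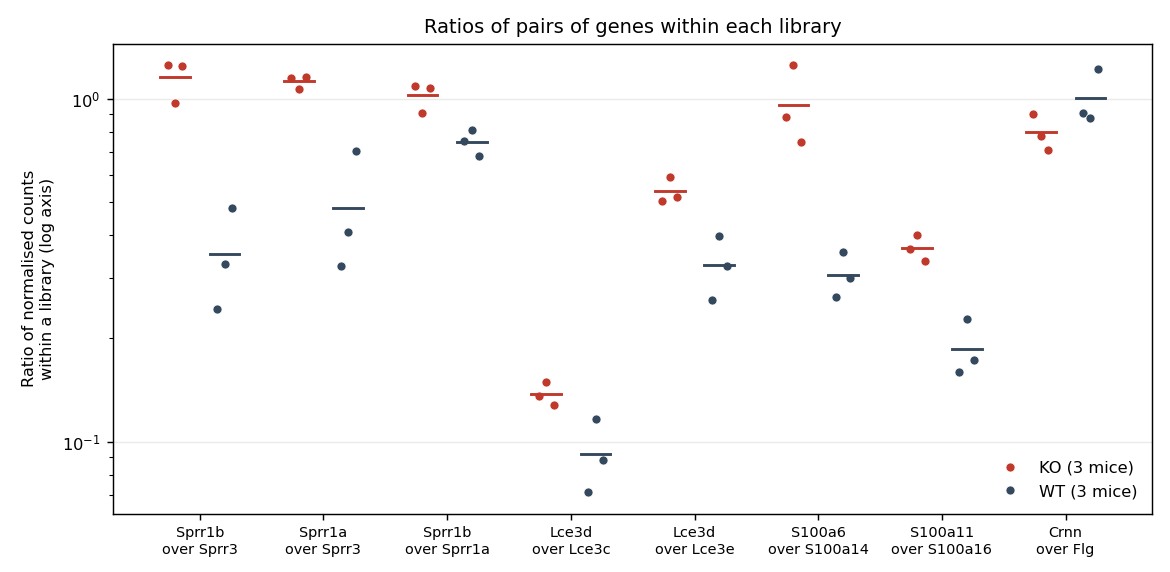
Ratio of the normalised counts of pairs of genes (y axis, log axis) within each KO and WT library, with bars at the group means. Sprr1b over Sprr3 lay at 0.968 to 1.25 in KO and 0.244 to 0.480 in WT, and Crnn over Flg is the pair shown whose groups overlap.

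Promoters of these Sprr genes are shown because neighbours of 1 subfamily had opposite signs, and that of Crnn because it had the lowest adjusted p among members that were lower in KO. Each is the 250 bases before the RefSeq start site (GRCm38.p6), written 5′ to 3′ on the gene's strand. TGANTCA, a loose form of the core that AP-1 (Fos and Jun dimers) binds, and TATAAA are in capitals. They are Sprr1b (chr3:92438780-92439029, minus strand), Sprr3 (chr3:92458721-92458970, minus strand), Sprr1a (chr3:92485882-92486131, minus strand) and Crnn (chr3:93144539-93144788, plus strand).
Sprr1b: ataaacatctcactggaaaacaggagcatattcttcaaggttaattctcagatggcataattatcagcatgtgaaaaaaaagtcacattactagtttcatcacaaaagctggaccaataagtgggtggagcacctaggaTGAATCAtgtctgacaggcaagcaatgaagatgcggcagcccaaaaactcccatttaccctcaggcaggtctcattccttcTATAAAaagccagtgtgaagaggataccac
Sprr3: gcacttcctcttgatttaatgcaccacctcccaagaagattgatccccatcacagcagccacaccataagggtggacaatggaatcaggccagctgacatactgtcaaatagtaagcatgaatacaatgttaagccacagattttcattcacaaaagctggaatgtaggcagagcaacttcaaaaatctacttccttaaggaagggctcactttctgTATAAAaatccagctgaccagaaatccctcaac
Sprr1a: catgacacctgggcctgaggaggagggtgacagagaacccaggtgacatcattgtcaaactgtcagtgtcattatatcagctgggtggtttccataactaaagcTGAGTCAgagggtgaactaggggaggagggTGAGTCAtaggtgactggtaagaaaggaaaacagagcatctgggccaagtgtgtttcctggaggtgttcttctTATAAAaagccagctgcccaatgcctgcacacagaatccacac
Crnn: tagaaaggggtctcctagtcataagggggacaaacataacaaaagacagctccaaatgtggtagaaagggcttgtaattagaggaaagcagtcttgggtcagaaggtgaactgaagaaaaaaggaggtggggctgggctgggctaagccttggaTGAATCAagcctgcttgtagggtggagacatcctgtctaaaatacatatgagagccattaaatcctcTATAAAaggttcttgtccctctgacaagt

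TGANTCA, searched on both strands, began 111 bases before the start of Sprr1b, 146 and 116 bases before that of Sprr1a and 96 bases before that of Crnn, and these letters were not in the window of Sprr3. All 4 windows held TATAAA, searched on the gene's strand, at 30, 33, 43 and 29 bases before the start of Sprr1b, Sprr3, Sprr1a and Crnn. Promoters of 55 members were in the RefSeq table, 59 in all, and 19 of them held TGANTCA (32.2%, against 6.75% of 32851 promoters of the same length). By subfamily the motif stood in 9 of 14 Sprr promoters (64.3%), 5 of 7 of the fused S100 type, 2 of 2 of the other envelope genes (Lor and Ivl), 3 of 16 S100a promoters and 0 of 20 Lce promoters. TATAAA stood in 22 of 59 member promoters (37.3%, against 7.59% of all), 10 of them of Sprr genes. The antioxidant response core TGACNNNGC, searched on both strands, was in 10 of 59 (16.9%, against 10.2% of all), and it overlapped TGANTCA in 1 member promoter. AACCGGTT, the site of grainyhead-like factors, was in 0 of 59 member promoters and in 0.116% of all. The windows of S100a6 and Lce3d did not hold the letters TGANTCA, while those of S100a11 (2 matches), Sprr2h and Sprr2i (1 each) did. A match is only a match of letters, and TGANTCA takes in TGAATCA, as in Sprr1b and Crnn, beside TGAGTCA, as in Sprr1a.

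The Sprr2 genes form a tandem array of near copies, several of which are known for strong induction in injured or inflamed epithelia. Sprr2i had the largest log2 fold change of the tested members, 2.22 ± 0.51, with 788, 1216 and 591 in KO, against 64.1, 343 and 248 in WT (limma adjusted p = 0.0629, edgeR adjusted p = 0.0759, DESeq2 adjusted p = 0.101). Its groups did not overlap and KO averaged 3.96 times WT, but WT replicate 1 was far below the other WT libraries. Without that library the log2 fold change of Sprr2i was 1.50 and passed limma (adjusted p = 0.0322). That was the 1 pass among 6 fits that each left out 1 library, where limma adjusted p reached 0.189. With the style of library names as a covariate the limma adjusted p of Sprr2i was 0.170. Sprr2h had 491, 1025 and 550 in KO, against 292, 342 and 443 in WT (log2 fold change 0.88 ± 0.28, limma adjusted p = 0.166, DESeq2 adjusted p = 0.037). Sprr2j-ps, named as a pseudogene but listed as protein-coding in GENCODE M21, had 62.8, 97.4 and 57.2 in KO, against 20.7, 50.6 and 44.4 in WT (log2 fold change 0.95 ± 0.35, limma adjusted p = 0.250). Leaving out 1 library lowered these values most for Sprr2h without KO replicate 2 (0.55) and for Sprr2j-ps without WT replicate 1 (0.56). These 3 were the Sprr2 rows in which the groups did not overlap.

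The other Sprr2 genes followed single libraries more than genotype. Sprr2f, for example, had 137, 377 and 301 in KO, against 10.4, 233 and 176 in WT, a log2 fold change of 1.69 ± 0.91 (limma adjusted p = 0.470). Sprr2d, Sprr2e and Sprr2g had the same shape, with WT replicate 1 at 7.54, 0.942 and 12.3 and the remaining WT libraries within or near the KO range (log2 fold changes 1.36, 1.91 and 1.03). Sprr2b and Sprr2k were steadier, at 524 to 1218 and 327 to 393 in KO, against 440 to 696 and 282 to 542 in WT (log2 fold changes 0.39 and -0.08). Sprr2a3 stood apart, with 207 in WT replicate 2 and 0.942 to 24.8 elsewhere. It shared 71.1% of the 50-base words in its last 300 transcript bases with Sprr2a1. Its tags could thus be discarded as ambiguous, which was not tested. The median log2 fold change over the 10 tested Sprr2 genes was 0.99, and 0.36 without WT replicate 1.

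**Figure D3:**
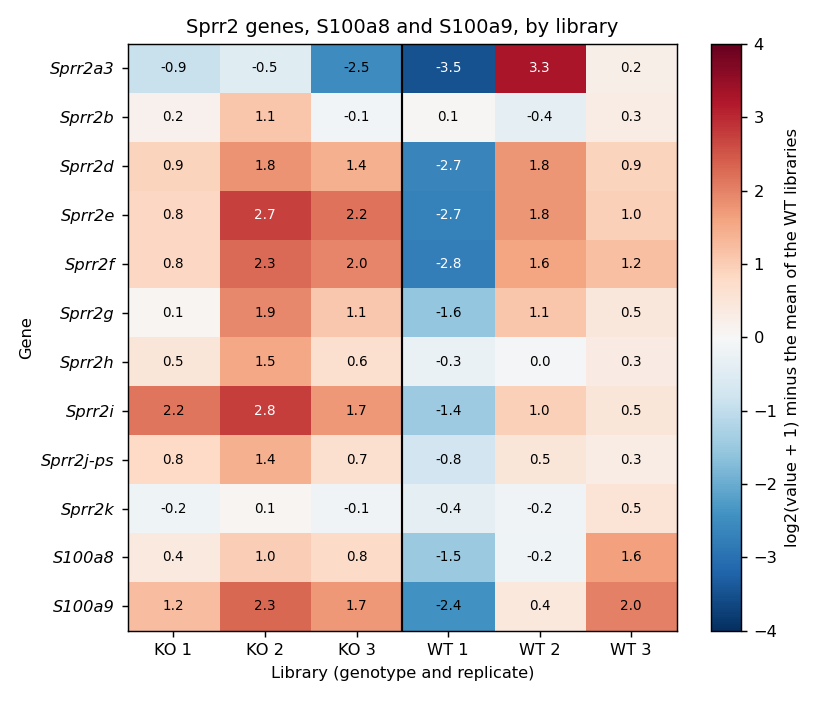
Log2(value + 1) minus the mean of the 3 WT libraries (colour and printed number) for the tested Sprr2 genes, S100a8 and S100a9 (rows) in each KO and WT library (columns). WT replicate 1 is low in most rows, and Sprr2i is above 1.7 in every KO library.

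S100a8 and S100a9 varied with the same library. S100a8 had 140, 210 and 183 in KO, against 37.7, 94.2 and 336 in WT, and S100a9 had 153, 321 and 216 in KO, against 11.3, 86.4 and 263 in WT. The WT values spanned the whole KO range for S100a8, and neither gene passed (0.71 ± 0.59 for S100a8 and 1.75 ± 0.83 for S100a9 on the log2 scale, limma adjusted p = 0.666 and 0.399). Without WT replicate 3 the log2 fold change was 1.54 for S100a8 and 2.75 for S100a9, and without WT replicate 1 it was -0.02 for S100a8 and 0.54 for S100a9. Of 12 neutrophil markers, 5 (Retnlg, Camp, Elane, Mpo and Cd177) were listed at 0 throughout, and the list summed to 7.58, 68.9 and 24.8 in KO, against 17.0, 18.3 and 13.1 in WT. Ltf alone stood at 56.0 in KO replicate 2.

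S100a6 encodes calcyclin, a calcium-binding protein found in proliferating epithelial cells and fibroblasts. Its level was 5913, 8311 and 5371 in KO, against 2382, 3160 and 3568 in WT. Each KO library was above each WT library, a 2.15-fold rise with a log2 fold change of 1.10 ± 0.23 (limma adjusted p = 0.0432, DESeq2 adjusted p = 3.23e-04). It missed the edgeR threshold (adjusted p = 0.0519), and the limma call was lost without WT replicate 1 (adjusted p = 0.163), WT replicate 2 (0.116) or KO replicates 1, 2 or 3 (0.130, 0.101 and 0.0973) and kept without WT replicate 3 (0.0327). Within the number and letter styles of library names the S100a6 difference was 1.11 and 0.90, and its adjusted p with the style as a covariate was 0.109. Fibroblasts can also make S100a6, and a list of 8 fibroblast markers summed to 1142, 252 and 631 in KO, against 1765, 1428 and 1968 in WT. The largest part of that sum in every library was the proteoglycan gene Dcn, with 530, 195 and 544 in KO, against 1658, 1329 and 1856 in WT (log2 fold change -2.06, limma adjusted p = 0.0152). The collagen genes Col1a1 and Col1a2 were at 190 and 235 in KO replicate 1 and at 3.45 to 21.7 in the other libraries, and the median log2 fold change of the 4 tested markers was 0.27. The part of fibroblasts in the S100a6 difference was not tested.

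The S100a genes split by direction. Their median difference was 0.39 within the number style of library names and -0.63 within the letter style. S100a11, a partner of annexins that is cross-linked into the envelope, had 2686, 2852 and 2382 in KO, against 1350, 1737 and 1902 in WT (log2 fold change 0.68 ± 0.19, limma adjusted p = 0.117, DESeq2 adjusted p = 0.0412). S100a10, the light chain of the annexin A2 complex, had 758, 1374 and 808 in KO, against 604, 709 and 565 in WT (log2 fold change 0.60 ± 0.23, limma adjusted p = 0.280, and 0.33 on the log2 scale without KO replicate 2). Both were without overlap, the KO libraries above. The most abundant members of the family were on the other side: S100a14 had 6688, 6651 and 7170 in KO, against 9039, 8830 and 11909 in WT (log2 fold change -0.53 ± 0.21, limma adjusted p = 0.285), and S100a16 had 7353, 7132 and 7069 in KO, against 8484, 7644 and 11025 in WT (-0.32 ± 0.21, limma adjusted p = 0.577). S100a7a, the mouse relative of psoriasin, had 940, 1107 and 1292 in KO, against 1329, 1311 and 2368 in WT (-0.54 ± 0.24, limma adjusted p = 0.372). Without WT replicate 3 the log2 fold change was -0.16 for S100a16 and -0.26 for S100a7a. In S100a14, S100a16 and S100a7a every KO library lay below every WT library, and none of them passed with limma, edgeR or DESeq2.

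Set within a library, the S100a6 to S100a14 ratio was 0.884, 1.25 and 0.749 in KO, against 0.264, 0.358 and 0.300 in WT. The S100a11 to S100a16 ratio was 0.365, 0.400 and 0.337 in KO, against 0.159, 0.227 and 0.172 in WT. Neither ratio could overlap between genotypes, since its first gene was higher and its second lower in every KO library than in every WT library. The lack of overlap thus adds nothing to the values of the single genes. These pairs were chosen after their values were seen and carry no test. S100a1, S100a13 and S100a4 had overlapping groups, with log2 fold changes of -0.52, -0.17 and 0.57 (lowest limma adjusted p = 0.420). The S100a4 value is uncertain, since 59.0% of its 3′ tag window overlaps the predicted gene Gm42674 on the same strand. S100a11 shared 21.1% of the 50-base words in its last 300 bases with Gm12854. Both predicted genes are listed at 0 in every library.

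Lce genes supplied most of the reads of the complex, 6.42% to 6.98% of a KO library and 5.76% to 7.68% of a WT library. Lce3a and Lce3c, members of a group that in human skin is known to be induced on barrier injury, had the highest Lce levels. Lce3a gave 89082, 85812 and 96108 in KO, against 80747, 74743 and 126700 in WT, and Lce3c gave 74169, 76176 and 78474 in KO, against 53897, 46657 and 84309 in WT. In both genes the KO libraries lay inside the WT range, and the log2 fold change was -0.02 ± 0.34 for Lce3a and 0.35 ± 0.33 for Lce3c (limma adjusted p = 0.990 and 0.706). The 13 Lce1 genes other than Lce1m ranged from 3605 to 23295 over all libraries. Of the 21 Lce genes, 19 had log2 fold changes between -0.32 and 0.35, with limma adjusted p values of at least 0.632, and the extreme at the low end was Lce1l, with 3776, 6410 and 4486 in KO, against 7139, 5054 and 5808 in WT.

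Lce3d departed from its neighbours. It had 10051, 11352 and 10040 in KO, against 3835, 5449 and 7458 in WT, without overlap (log2 fold change 0.96 ± 0.25, DESeq2 adjusted p = 0.00927). The limma and edgeR tests did not call it (adjusted p = 0.0977 and 0.122). Without WT replicate 3 the limma adjusted p was 0.0250. That was the 1 pass among 6 fits that each left out 1 library, where limma adjusted p reached 0.347. The Lce3d difference was 1.14 within the number style of library names and 0.52 within the letter style. With the style as a covariate its limma adjusted p was 0.177. Relative to Lce3c, 11.7 kb away, the Lce3d ratio was 0.136, 0.149 and 0.128 in KO, against 0.0712, 0.117 and 0.0885 in WT, and relative to Lce3e, 8.56 kb away on its other flank, it was 0.501, 0.590 and 0.518 in KO, against 0.258, 0.398 and 0.325 in WT. Both ratios were chosen after the values were seen. Lce3d shared 42.2% of the 50-base words of its last 300 bases with Lce3c, so that tags from the far more abundant Lce3c could be assigned to it or discarded as ambiguous, which was not tested. The only other Lce gene beyond that range was Lce1m, at a far lower level of 76.9, 93.1 and 50.5 in KO, against 68.8, 21.8 and 49.6 in WT (log2 fold change 0.74 ± 0.39, limma adjusted p = 0.459). Lce6a, the least abundant, was at 10.8 to 37.1 in KO and 10.5 to 28.7 in WT (log2 fold change 0.23).

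**Figure D4:**
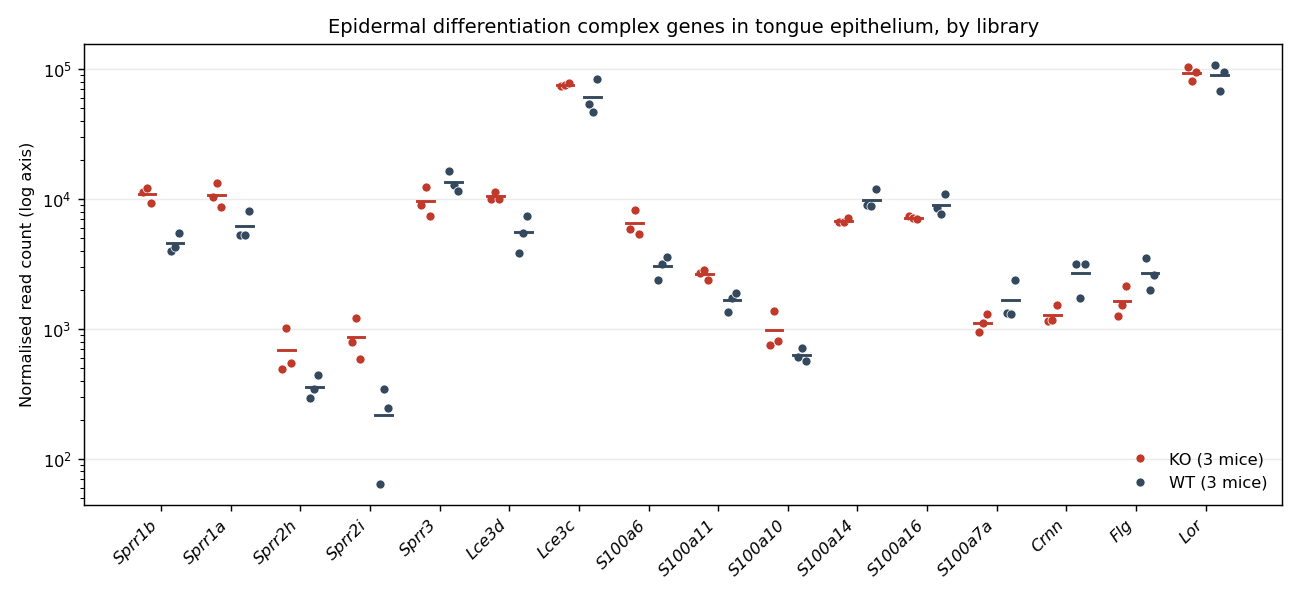
Normalised read count (y axis, log axis) of selected members in each KO and WT library, 1 point per mouse, with bars at group means. Sprr1b, Sprr1a, Lce3d, S100a6 and S100a11 lie higher in KO without overlap, S100a14, S100a16 and Crnn lower, and Lor and Lce3c overlap.

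Crnn encodes cornulin, a fused S100 type protein abundant in the squamous lining of the mouth and oesophagus. It had 1142, 1182 and 1523 in KO, against 3173, 1746 and 3191 in WT. All KO libraries were below all WT libraries, and KO averaged 0.474 times WT. The log2 fold change of -1.03 ± 0.25 passed with DESeq2 (adjusted p = 0.00181) and did not with limma (0.0757) or edgeR (0.0681). The limma adjusted p was 0.0259 without WT replicate 2, the lowest WT library. That was the 1 pass among 6 fits that each left out 1 library, where limma adjusted p reached 0.266. The authors' deposited table gave Crnn a log2 fold change of -1.08 with an adjusted p of 0.00157. Within the 2 styles of library names the difference was -1.04 and -1.25, and the limma adjusted p with the style as a covariate was 0.0993.

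Flg, the filaggrin precursor that bundles keratin filaments, had 1264, 1516 and 2148 in KO, against 3489, 1985 and 2613 in WT. WT replicate 2 lay below KO replicate 3, so the groups overlapped (log2 fold change -0.71 ± 0.25, limma adjusted p = 0.230). Crnn and Flg kept a like proportion to each other, with a ratio of 0.903, 0.780 and 0.709 in KO, against 0.910, 0.880 and 1.22 in WT. Tchhl1, a trichohyalin-like protein, had 168, 294 and 307 in KO, against 254, 147 and 453 in WT (log2 fold change -0.05 ± 0.37). Together the fused S100 type genes took 0.0458%, 0.0552% and 0.0697% of the reads in KO, against 0.124%, 0.0806% and 0.104% in WT. It was the subfamily whose shares did not overlap between the genotypes.

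Lor, loricrin, and Lce3a had the highest mean levels of all members. Lor had 104898, 81193 and 94782 in KO, against 107980, 67448 and 94898 in WT, which overlapped throughout (log2 fold change 0.07 ± 0.34, limma adjusted p = 0.951). Crct1, a cysteine-rich gene of the complex, had 33650, 36849 and 34150 in KO, against 33389, 28881 and 43299 in WT (log2 fold change 0.01 ± 0.27). Kprp, a keratinocyte proline-rich protein, had 10523, 12458 and 16203 in KO, against 12192, 9193 and 15937 in WT (0.08 ± 0.27). Ivl, involucrin, an early envelope scaffold, was low in this tissue, at 30.3, 32.7 and 21.9 in KO, against 59.4, 32.3 and 39.2 in WT (log2 fold change -0.58 ± 0.30, limma adjusted p = 0.456). KO replicate 2 was just above WT replicate 2, so the groups overlapped.

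By total reads the genotypes overlapped. All members together took 10.1%, 10.8% and 10.4% of the reads in KO, against 9.71%, 9.05% and 11.3% in WT. Sprr genes took 0.591%, 0.787% and 0.492% in KO, against 0.484%, 0.512% and 0.455% in WT, and without Sprr3 the shares were 0.431%, 0.557% and 0.361% in KO, against 0.190%, 0.244% and 0.265% in WT. Leaving out that 1 gene thus separated the genotypes, whereas the whole subfamily overlapped. Most of the reads that remained were of Sprr1a and Sprr1b, which did not overlap on their own, so this restates their values. S100a genes took 0.440% to 0.524% in KO and 0.422% to 0.541% in WT, and the other envelope genes 2.41% to 2.65% in KO and 2.19% to 2.76% in WT.

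**Figure D5:**
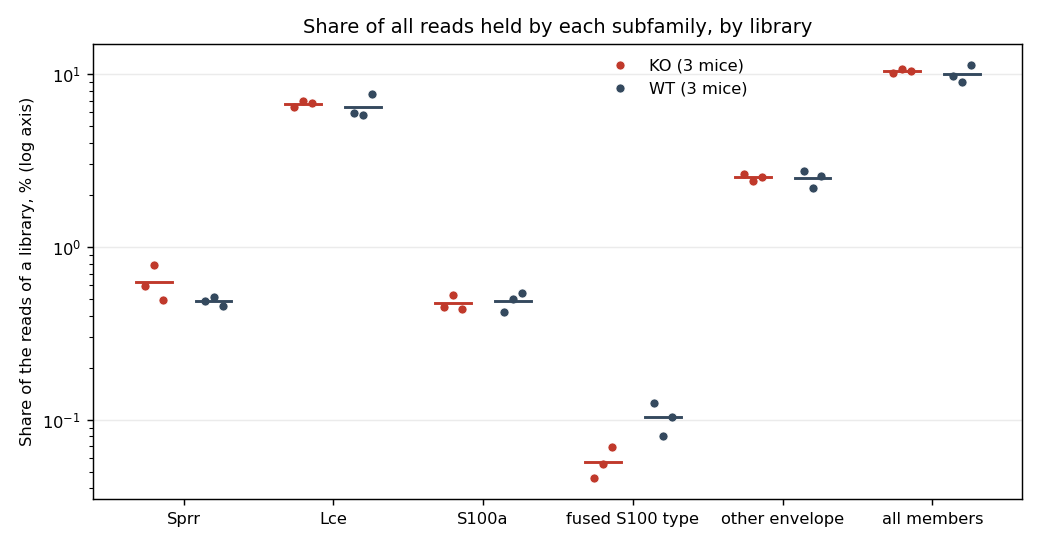
Share of all reads of a library (y axis, percent, log axis) held by each subfamily and by all members, 1 point per KO or WT library, with bars at group means. All members together lie at 10.1% to 10.8% in KO and 9.05% to 11.3% in WT, and the fused S100 type is lower in KO without overlap.

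Other genes of envelope building showed no call. Of 22 tested envelope and barrier genes outside the complex's symbols (transglutaminases, envoplakin, periplakin, corneodesmosin, keratins and proteases), the number that passed was 0 by each of limma, edgeR and DESeq2. Over all genes tested, limma called 1.22% higher and 0.583% lower, and DESeq2 1.97% and 1.38%. A count of 0 in a list of 22 is close to those shares. The list had a median of 0.06 on the log2 scale, beside -0.01 over all genes. The smallest p in that list was for Casp14, a protease of cornifying cells, with 184, 115 and 166 in KO, against 73.5, 62.8 and 111 in WT (log2 fold change 0.92, limma adjusted p = 0.127), followed by the kallikrein gene Klk5 (-0.43, limma adjusted p = 0.408). A further list held 13 tested genes taken as lying in or near the region, whose positions were not looked up. Of these, 0 passed with any of the 3 tools (median -0.11), which is also close to the shares over all genes. Tpm3, a tropomyosin (0.35), and Them4, a thioesterase (-0.42), had the smallest p. Among 4 further S100 genes outside the rule, 1 was tested, S100pbp (0.20, limma adjusted p = 0.790).

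Transcription factors known to act on the complex were likewise without a call, 0 of 22 tested (median -0.06). This is close to the share over all genes, of which limma called 1.22% higher and 0.583% lower. The smallest p were for Barx2, a homeobox factor, with 741, 924 and 722 in KO, against 1535, 1510 and 936 in WT (log2 fold change -0.71, limma adjusted p = 0.162), and Trp63, the master regulator of stratified epithelium, with 394, 469 and 531 in KO, against 694, 791 and 599 in WT (-0.58, limma adjusted p = 0.170). In both genes every KO library lay below every WT library, as it did in Ovol2 and Pou2f3 of the same list, while in Cebpa every KO library lay above. Over all genes tested, 9.25% were lower and 9.84% higher in KO without overlap. Of the AP-1 subunits 0 of 6 passed (median 0.31), also close to the share over all genes. Fosb had 102, 57.7 and 82.9 in KO, against 46.2, 39.3 and 35.3 in WT (0.96, limma adjusted p = 0.110), and Fos had 68.3, 121 and 137 in KO, against 75.4, 48.0 and 30.0 in WT (1.11, limma adjusted p = 0.178).

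Basal keratinocyte markers are given beside Sprr1b and S100a6, since their summed level was also higher in KO. Krt14 gave the largest part of that sum in every library. Itgb4, the hemidesmosome integrin subunit, was the 1 of 7 basal markers that passed limma, where 1.22% of all genes were called higher. DESeq2 called 4 higher (Krt5, Krt14, Itga6 and Itgb4), where 1.97% of all genes were, and 1 lower (Krt15), where 1.38% were. Itgb4 had 1008, 742 and 589 in KO, against 339, 366 and 317 in WT (log2 fold change 1.16, limma adjusted p = 0.0194). Krt14, the keratin whose promoter drives the Cre, had 40922, 28447 and 23878 in KO, against 13185, 13505 and 15243 in WT (1.12, limma adjusted p = 0.0694, DESeq2 adjusted p = 6.66e-05). Krt15, another basal keratin, ran the other way, with 3803, 1183 and 2563 in KO, against 4815, 5183 and 6177 in WT (-1.25, limma adjusted p = 0.123, DESeq2 adjusted p = 0.0199). Trp63, also on the basal list, was lower in every KO library than in every WT library (-0.58, limma adjusted p = 0.170), as were 9.25% of all genes tested. Among the suprabasal markers Krt6b, a keratin of injured epithelium, had 149086, 137406 and 131473 in KO, against 62222, 50405 and 72109 in WT (1.19, limma adjusted p = 0.106, edgeR adjusted p = 0.0421, DESeq2 adjusted p = 1.24e-06). It was the 1 of 9 suprabasal markers called by edgeR (1.14% of all genes higher) and by DESeq2, and limma called 0. The rest ran from -0.56 (Dsg1a) to 0.46 (Dsc2), with Krt4 at 0.06, Krt13 at 0.04 and a list median of 0.12. The part of these markers in the Sprr1b and S100a6 differences was not tested.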

How the data were processed

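The 6 libraries, 1 per mouse, are 3′-end tag libraries of tongue epithelium. Groups and replicate numbers were read from the sample titles. The authors deposited a table of normalised read counts per gene and library, a linear signal per the file headers. For the genes they called, the authors deposited log2 fold changes with errors, a score (fold change over its error), and raw p-values beside adjusted ones and q-values. Per the submitters' processing notes, the tools were DESeq2, featureCounts, STAR and FastQC, listed without versions, order or role. Genome build and strand setting: not given in the sources used here.

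Every deposited value was a whole multiple of 1 step per library (100%, with a tolerance of 0.01 reads), so whole reads were recovered. The main test was limma 3.58.1 with an intensity trend on log2(value + 1) in R 4.3.3, for genes at 10 or more in at least 3 libraries, two-sided, with Benjamini-Hochberg adjustment at 0.05 over all 10987 genes. The added 1 shrinks changes of low genes, but a mean of logs gives a single very low library much weight. The fold changes of variable low genes can thus be larger or smaller than those from edgeR. Sprr2f was at 1.69, against 0.96 with edgeR, S100a9 at 1.75, against 0.98, and Sprr2a3 at -1.29, against -3.04. Quasi-likelihood tests in edgeR 4.0.16 and DESeq2 1.42.0 on the recovered reads, other pseudocounts (0.5, 5), filters (none, 50) and scalings, a weight per library, the name style of libraries, a replicate block and leaving out each library were alternatives. The scripts were tested on simulated data. P-values measure the spread between mice.

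Members and gene lists were chosen with earlier results of these data known. Named with all values were members called by any of the 3 tools, the 3 with the smallest limma p and the 2 with the highest mean of each subfamily, and those without overlap, and from each list of envelope, regional, transcription factor, AP-1 and S100 genes any called genes and the 2 with the smallest p. Ratios, Sprr2f, S100a8, S100a9, Ltf, Dcn, Col1a1, Col1a2, Itgb4, Krt14, Krt15, Krt6b, Dsg1a, Dsc2, Ovol2, Pou2f3 and Cebpa were added after their values were seen. Cell type lists not mentioned in the results (endothelium, macrophage and dendritic cell, T cell, mast cell, nerve and glia, taste bud, salivary gland, melanocyte and erythrocyte) held 1 limma call each for T cell (Trbc2, 71.5 to 84.5 in KO and 12.3 to 23.5 in WT) and melanocyte (Mlana, 15.5 to 26.0 in KO and listed at 0 to 1.31 in WT) and 0 for the others. Positions are from GENCODE M21 and promoters from RefSeq, both GRCm38. Tags of 3′ ends shared between members may be split: 4 members shared over 50% and 42 shared 0% of the 50-base words in their last 300 transcript bases with other genes, and Sprr2a1 and Sprr2a2 were identical there.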

Additional observations from a re-analysis of the deposited data

How the results depend on the processing

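The members called with limma, 2 higher and 0 lower in KO, numbered 5 higher with library weights, 1 with edgeR, 6 with DESeq2 and 0 with the name style as a covariate, and 0 to 3 when 1 library was left out. Lower in KO, 1 member (Crnn) was called with no filter, equal library totals, quantile normalization and DESeq2, and 0 to 1 when 1 library was left out. Over all genes the counts were 134 higher and 64 lower, 317 and 273 with library weights, 216 and 152 with DESeq2, 61 and 21 with the name style, and 40 to 129 and 16 to 52 when 1 library was left out. The cause was not tested. The labels do not say whether the replicate numbers pair the mice. Same-number correlations of -0.25, 0.03 and 0.28 cannot decide it, being taken on deviations from means of 3 libraries. With a replicate block 3 members were higher (Sprr1b, S100a6 and Sprr2i) and 1 lower (Crnn, limma adjusted p = 0.0447), and over all genes 117 were higher and 61 lower. The S100a share, KO minus WT, was -0.0171 percentage points, and 0.0418 without S100a14. The fused S100 type share was -0.0460 points, and -0.0262 without Flg. Of 431 values of named members under an alternative, 381 kept sign and side of the threshold, 19 kept the side but changed sign (all in Lce3a, Tchhl1, Crct1, Kprp and Lor, which are near 0), 18 passed where the main test did not, and 13 no longer passed. At 4606309 to 6286153 reads a library, the 13 untested members had too few assigned reads for a comparison. For Sprr2a1 and Sprr2a2, which share their 3′ ends, tags could also have been discarded as ambiguous, which was not tested.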
